A study of Phalaenopsis amabilis with 15 samples.

Results

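Young orchid leaves that had stood for 40 days in a short photoperiod were compared with leaves that had stood there for 20 days. The comparison used 6 of the 15 RNA-sequencing libraries of the series, namely SD_40d replicates 1 to 3 against SD_20d replicates 1 to 3, chosen by their labels for light and day. Both groups were Phalaenopsis amabilis, a moth orchid, kept under 8 h of light at 25 °C (light) and 18 °C (dark), so that they differed by days of treatment alone as far as the labels say. Before that they stood under 12 h of light at 28 °C (light) and 25 °C (dark), where the control group was taken at day 0. The long photoperiod groups, LD_20d and LD_40d, had 16 h of light at the same cooler temperatures. Each group held 3 biological replicates, each library pooled the topmost young leaves of 3 plants, and 120 plants were used in all. The age of a leaf and the hour of harvest are not given, so a change over days cannot be told apart from a change of leaf age or of time in the day. Reads were counted on loci of the related species P. equestris, and a gene is named here by the protein that the table lists as its best match.

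A Phalaenopsis leaf grows from its base, where cells divide, and the cells then enlarge and turn into photosynthetic tissue. The mature leaf uses crassulacean acid metabolism (CAM): phosphoenolpyruvate carboxylase (PEPC) fixes CO2 at night into malic acid, and starch broken down at night supplies the acceptor. Cool temperature is known as the main signal for flower stalk emergence in these orchids, while photoperiod is read in leaves through photoreceptors and the circadian clock, which set the leaf signal FLOWERING LOCUS T (FT) in many plants.

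Library totals were 11246777 to 12992442 counts in SD_20d and 11748364 to 14637388 counts in SD_40d. Values are CPM, read counts scaled to library size with TMM factors. Changes are log2 fold changes, SD_40d minus SD_20d, from an edgeR quasi-likelihood fit to all 15 libraries. The value after ± is an approximate standard error, the size of the change divided by the square root of its F statistic. A gene rose or fell where the adjusted p was under 0.05. SD_40d replicate 1 stood apart from replicates 2 and 3. On the first principal component, with 44.6% of the variance, it lay at 16.9, against 77.6 and 89.3 for replicates 2 and 3, and the SD_20d libraries lay at -60.7, -88.1 and -82.1. The SD of the log2 difference between 2 libraries over all genes was 0.475 for SD_40d replicates 2 and 3, but 0.814 and 0.904 for replicate 1 against them. Counts are therefore also given without that library. Leaf markers were counted in all 6 libraries. The 13 chlorophyll a-b binding loci summed to 16710 to 20530 CPM in SD_20d and 20340 to 23380 in SD_40d, against 47650 to 61070 in the control. The 2 Rubisco small subunit loci summed to 686 to 801 and 896 to 1482, against 1827 to 2559. The 2 PEPC loci summed to 542 to 671 CPM in SD_20d, 711, 2656 and 3723 in SD_40d and 3871 to 4327 in the control. Rubisco activase lay below the control in all SD_20d libraries and above it in all SD_40d libraries. The 12 floral organ MADS loci summed to 22.7 to 32.9 CPM in SD_20d and 34.5 to 37.5 in SD_40d. The 29 meristem markers, of which 8 had no count, summed to 239 to 275 CPM in SD_20d and 355 to 436 in SD_40d, and the 59 retroelement loci, of which 32 had no count, to 129 to 142 and 159 to 171. The part of such other tissue and of SD_40d replicate 1 in the results below was not tested, beyond the values given with and without that library.

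**Figure D1:**
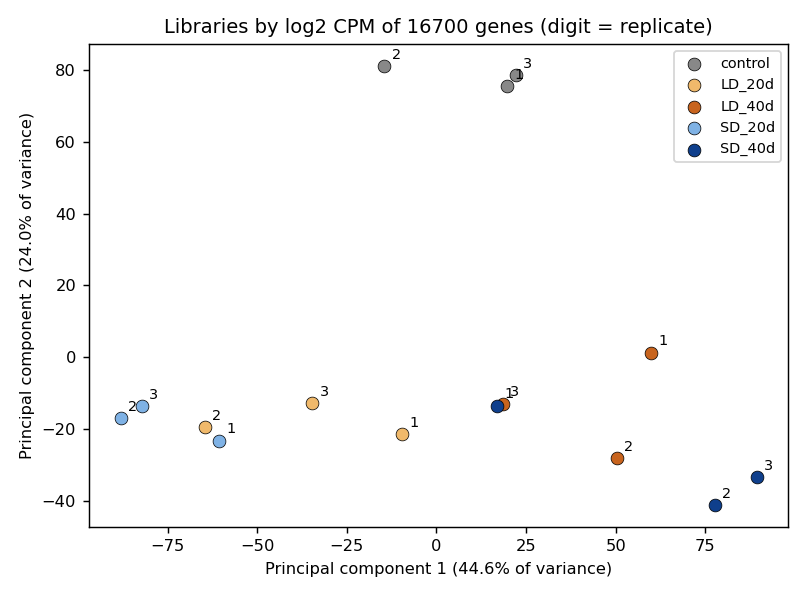
Position of each of the 15 libraries on the first 2 principal components of log2 CPM, coloured by group and marked by replicate number. SD_20d libraries lie at the left and SD_40d replicates 2 and 3 at the right, with SD_40d replicate 1 between them at 16.9 on the first axis.

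Between day 20 and day 40 of short days, 6801 of 16700 tested genes changed, which is 40.7%: 3350 rose (20.1%) and 3451 fell (20.7%). A log2 size of 2 or more was reached by 756 falls and 388 rises, and the median size was 0.99 among falls and 0.79 among rises. CPM of the 2 groups did not overlap for 8904 genes (53.3%). Without SD_40d replicate 1, 8174 of 16921 genes were called (48.3%), 3948 up (23.3%) and 4226 down (25.0%). The number called was 4617 to 8174 when 1 library was left out, lowest without SD_20d replicate 2, and 4002 of the 6801 genes were called in all 6 of those fits. The steepest changes were ranked among called genes whose log2 CPM averaged at least 2 and whose groups did not overlap. Genes without an informative description, such as uncharacterized proteins, were left out of that ranking. The 10 steepest falls ran from -9.997 to -5.57, and 5 of them build or drive the division apparatus: TOP2, KN4C, TBB2, CKB21 and the spindle protein ASPM (LOC110033771). The others were the lipase GDL28 (LOC110027823), MAKR2 (LOC110026972), PATL4 (LOC110028702), the receptor kinase FEI1 (LOC110019610) and ICR4 (LOC110038219). GDL28, of the GDSL lipase family, had 80, 127 and 112 CPM in SD_20d and 0.875, 0 and 0 CPM in SD_40d. The 10 steepest rises ran from 4.11 to 5.63: an early nodulin-75-like locus (LOC110021294), HFB2B, the ABC transporter AB5G (LOC110026490), the cytochrome P450 C71A1 (LOC110032506), the proteases SBT4 (LOC110036017) and NEP1 (LOC110022733), the phospholipase NPC4 (LOC110036802), the lipase GDL87 (LOC110022640), the small heat shock protein HSP21 (LOC110022593) and IRX9. NPC4, which cleaves membrane lipids, had 1.51, 0.326 and 1.64 CPM in SD_20d and 6.49, 31.3 and 30.5 CPM in SD_40d, and NEP1 had 2.74, 2.53 and 1.92 CPM in SD_20d and 9.04, 69 and 75 CPM in SD_40d. For both, SD_40d replicate 1 was the lowest day-40 library but lay above day 20. The members of a list that rose or fell are counted below beside these shares, with no test of the list.

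**Figure D2:**
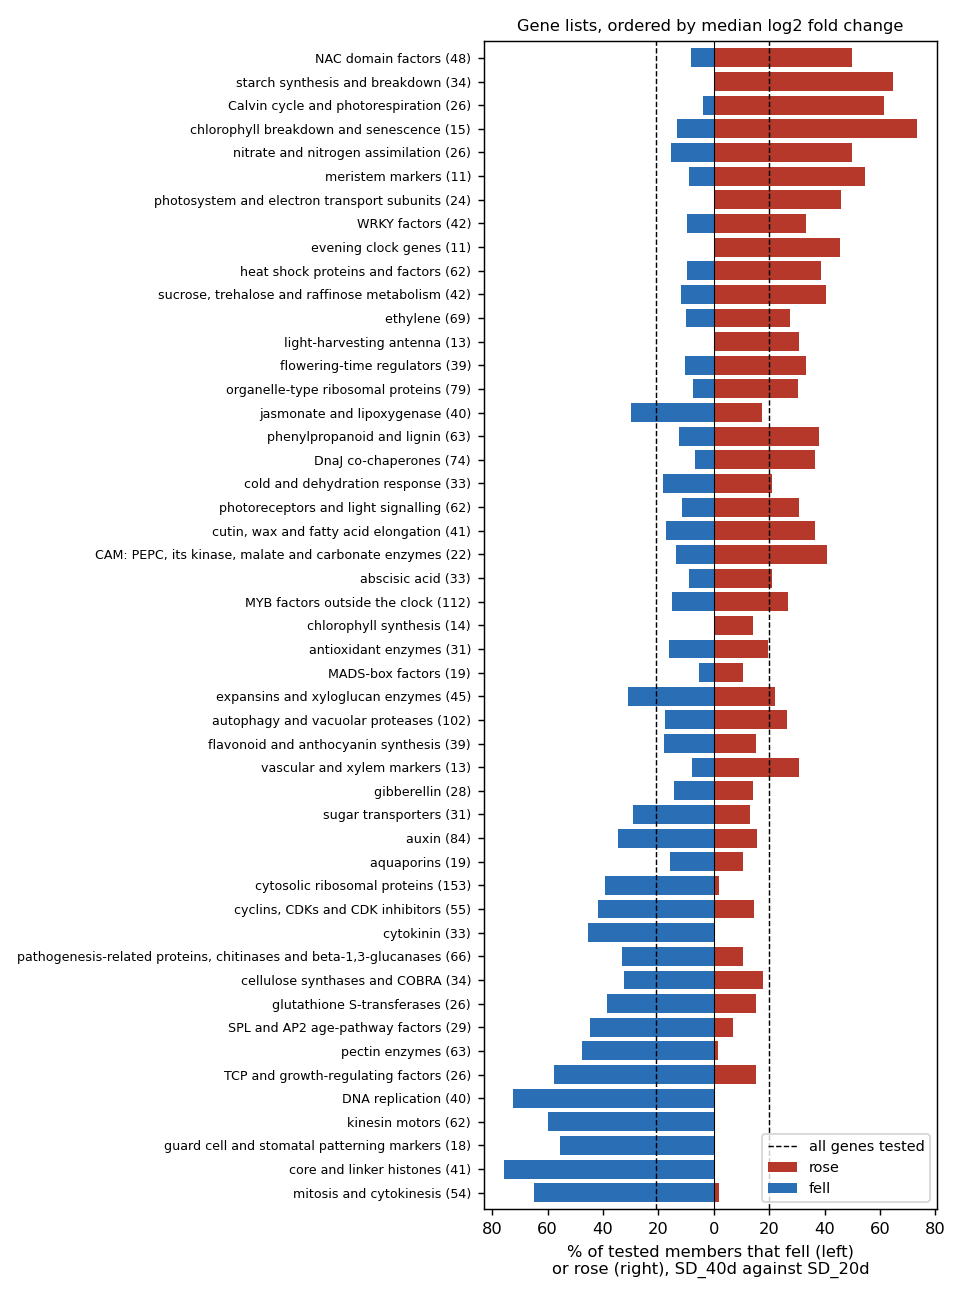
Percent of the tested members of each gene list with 10 or more of them (number in brackets) that rose (right, red) or fell (left, blue) from SD_20d to SD_40d, ordered by the median log2 fold change; dashed lines mark 20.1% and 20.7%, the shares over all genes. Division lists lie at the bottom, with 35 of 54 mitosis genes and 31 of 41 histones down, and NAC factors, starch and Calvin cycle genes at the top.

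Genes of cell division fell together and steeply. Of 54 tested genes of mitosis and cytokinesis, 35 fell and 1 rose (MAD1, LOC110037667), with a median log2 fold change of -1.83, and of 62 kinesins, the motors that move spindles and cell plates along microtubules, 37 fell and none rose (median -1.10). TOP2 (LOC110022709, scaffold NW_018164644.1, 1519722 to 1526427), the topoisomerase that disentangles replicated chromosomes, had 102, 172 and 156 CPM in SD_20d and 0.0729, 0.0915 and 0.221 CPM in SD_40d. It fell by 10 ± 1.69 log2 units (adjusted p = 0.000984), the steepest of the falls ranked above, and missed the threshold under limma-voom alone. The day-40 libraries, replicate 1 included, held almost none of it, and the control held 0.571, 6.33 and 0.315 CPM. KN4C (LOC110030600), a kinesin, had 42.9, 63.2 and 61.7 CPM in SD_20d and 0.729, 0.366 and 0.516 CPM in SD_40d. It fell by 6.65 ± 0.97 log2 units (adjusted p = 0.000733). SY111 (LOC110033252), the cytokinesis syntaxin KNOLLE, had 33.2, 49.7 and 46.9 CPM in SD_20d and 0.146, 0 and 0.0737 CPM in SD_40d. Over the group that was 1727 counts against 3, a ratio of 548 with a 95% counting interval of 187 to 2660. CCB22 (LOC110025718), a B-type cyclin that drives entry into mitosis, had 36.4, 56.7 and 49 CPM in SD_20d and 1.17, 0.64 and 1.25 CPM in SD_40d. It fell by 5.50 ± 0.94 log2 units (adjusted p = 0.001). CKB21 (LOC110020428), a plant-specific mitotic cyclin-dependent kinase, had 28.6, 47.2 and 38.4 CPM in SD_20d and 0.219, 0.274 and 0.811 CPM in SD_40d. It fell by 6.40 ± 1.29 log2 units (adjusted p = 0.0023). For TOP2, KN4C, SY111, CCB22 and CKB21 every day-20 library lay above every day-40 and every control library, and replicate 1 of SD_40d lay with its group. TBB2 (LOC110022085), a beta-tubulin, had 95.1, 169 and 143 CPM in SD_20d and 2.33, 1.01 and 0.811 CPM in SD_40d. It fell by 6.59 ± 1.21 log2 units (adjusted p = 0.00141). Among 55 cyclins, cyclin-dependent kinases and their inhibitors, 23 fell and 8 rose. The rises were 3 T-type cyclins, 2 CDKG2 loci, CDKF3, CCU11 and the D-type cyclin CCD31. CDKG2 (LOC110018820) had 196, 154 and 179.7 CPM in SD_20d and 350.0, 425 and 464 CPM in SD_40d. It rose by 1.23 ± 0.20 log2 units (adjusted p = 0.000877). CCD31 (LOC110025010), of the class that links growth signals to the start of the cycle, had 97.4, 80 and 82.5 CPM in SD_20d and 140.2, 124 and 127 CPM in SD_40d. It rose by 0.59 ± 0.12 log2 units (adjusted p = 0.00285). The summed level of 58 mitosis genes was 1361 to 1760 CPM in SD_20d, 734 to 749 in SD_40d and 739 to 787 in the control. In such bulk leaf samples, fewer dividing cells and less RNA per dividing cell cannot be told apart. Leaving out 1 library gave 0 to 2 rises for the mitosis list and 0 to 2 for kinesins, the most being 2, without SD_40d replicate 1 and SD_20d replicate 1, in that order.

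DNA replication and chromatin genes fell too. Of 40 replication genes 29 fell and none rose (median -0.85; 2 rose without SD_40d replicate 1), and of 41 core and linker histones 31 fell and none rose (median -1.51). MCM7 (LOC110018054), a subunit of the replicative helicase, had 17.2, 22.7 and 24.6 CPM in SD_20d and 5.03, 3.57 and 4.65 CPM in SD_40d. It fell by 2.28 ± 0.32 log2 units (adjusted p = 0.000733). PCNA1 (LOC110030415), the clamp that holds DNA polymerase on its template, had 17, 30.5 and 25.3 CPM in SD_20d and 4.08, 1.01 and 0.959 CPM in SD_40d. It fell by 3.56 ± 0.53 log2 units (adjusted p = 0.000734). For both, no control library lay below the lowest day-20 library: the control held 24.8, 27.4 and 21.6 CPM of MCM7 and 33.1, 43.5 and 29 CPM of PCNA1. H2B1 (LOC110026429, scaffold NW_018164814.1, 1709920 to 1710533), a histone H2B, had 152, 238 and 215 CPM in SD_20d and 38.4, 12.5 and 9.44 CPM in SD_40d. H2B1 fell by 3.32 ± 0.50 log2 units (adjusted p = 0.000734), and SD_40d replicate 1 lay between the day-20 libraries and replicates 2 and 3. On the mean of all histones, with the SD_20d mean set to 0 and the mean of SD_40d replicates 2 and 3 set to 1, replicate 1 lay at 0.54, against 0.91 for mitosis and 0.80 for replication. Histone genes come in near-identical copies, so that the split of reads among single loci is uncertain. Of 153 cytosolic ribosomal proteins 60 fell and 3 rose (median -0.30), the 3 rises being RL8 (LOC110018496), RS30 (LOC110024454) and RS18 (LOC110032380). That number of falls was 30 without SD_20d replicate 2, 38 without SD_20d replicate 3 and 34 without SD_40d replicate 2, and the rises were 7 without SD_40d replicate 1 and 1 without SD_20d replicate 1 or 3 or SD_40d replicate 2 or 3. RS8 (LOC110018501), a small subunit protein, had 38.4, 63.3 and 53.8 CPM in SD_20d and 25.7, 20.7 and 23.3 CPM in SD_40d. It fell by 1.16 ± 0.20 log2 units (adjusted p = 0.0012). Ribosomal proteins of chloroplast and mitochondrial type went the other way, with 24 of 79 up and 6 down, although the rises numbered 14 in each fit without SD_20d replicate 2 or replicate 3, and the falls 3 in each of those fits and without SD_40d replicate 2.

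**Figure D3:**
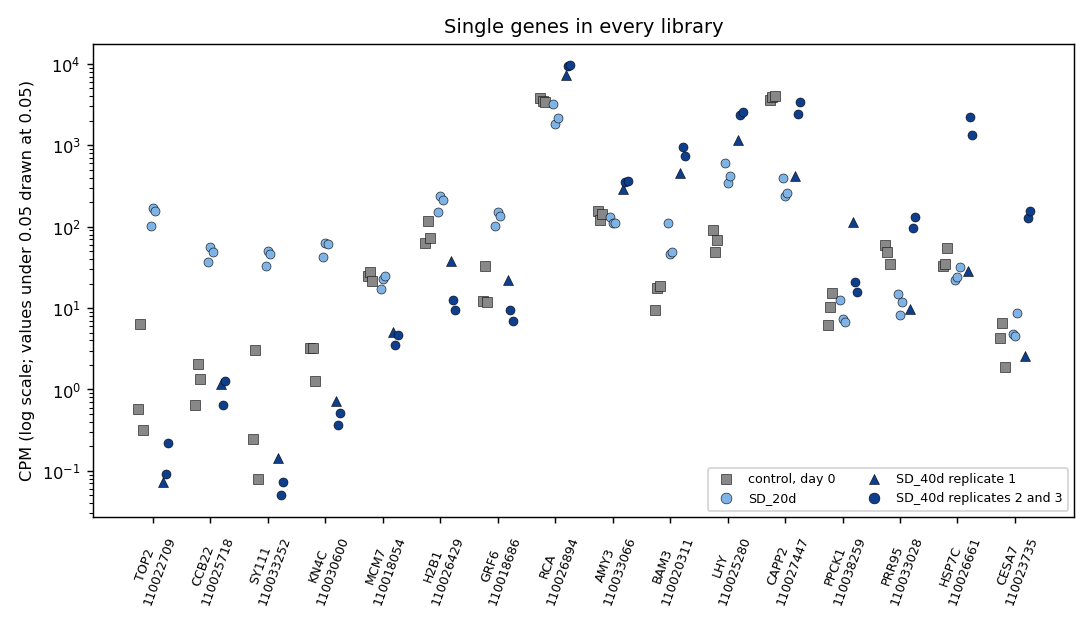
CPM on a log axis of 16 named genes in each control, SD_20d and SD_40d library; triangles mark SD_40d replicate 1, and values under 0.05 are drawn at 0.05. Cyclin, kinesin and topoisomerase genes drop in all 3 SD_40d libraries, while for PRR95, HSP7C and CESA7 the triangle lies among the SD_20d points or just below them.

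Regulators of leaf growth fell as well. Growth-regulating factors and TCP factors set how long leaf cells divide, and 15 of 26 fell while 4 rose (median -0.76). GRF6 (LOC110018686) had 102, 153 and 134 CPM in SD_20d and 21.9, 9.51 and 6.93 CPM in SD_40d. It fell by 3.34 ± 0.58 log2 units (adjusted p = 0.00108). TCP3 (LOC110027569), of the class that ends division in leaf margins of Arabidopsis, had 337, 506 and 450.0 CPM in SD_20d and 110.3, 21.2 and 11.5 CPM in SD_40d. It fell by 3.17 ± 0.72 log2 units (adjusted p = 0.00422). All day-40 values lay below all day-20 values for both, and replicate 1 was the highest of the day-40 libraries. The 4 rises were 2 TCP20 loci (LOC110031909 and LOC110034812), a GRF1 locus (LOC110027579) and a further GRF6 locus (LOC110036299). ANT (LOC110029871), an AP2-type factor that keeps organ cells dividing, had 16, 27.2 and 29.1 CPM in SD_20d and 0.802, 0.457 and 0.0737 CPM in SD_40d. It fell by 5.73 ± 1.36 log2 units (adjusted p = 0.00543). It belongs to the list of SPL and AP2 factors, of which many SPL genes are targets of the age-related miR156 in other plants; 13 of its 29 tested genes fell and 2 rose (median -0.63). SPL3 (LOC110023454) had 140.4, 169.7 and 166 CPM in SD_20d and 89, 53.4 and 53.4 CPM in SD_40d and fell by 1.28 ± 0.25 log2 units (adjusted p = 0.00209), whereas SPL1 (LOC110027702) had 69.7, 59.8 and 58.3 CPM in SD_20d and 94.3, 146 and 136 CPM in SD_40d. It rose by 1.0 ± 0.14 log2 units (adjusted p = 0.000733). The other rise was AP2 (LOC110021827), with 69.7, 56.8 and 65.3 CPM in SD_20d and 112, 98.3 and 88.3 CPM in SD_40d, which rose by 0.64 ± 0.15 log2 units (adjusted p = 0.0051). Of 18 genes for guard cells and stomatal patterning 10 fell and none rose (median -1.18), though the falls numbered 6 without SD_20d replicate 3 and 5 without SD_40d replicate 2 or 3, and 1 rose without SD_40d replicate 1. The falls were 6 EPF and EPFL peptides, the receptor TMM, SPCH, SCAB1 and the guard cell anion channel SLAC1. The 23 loci of that list summed to 182 to 227 CPM in SD_20d and 163 to 189 in SD_40d, so that the groups overlapped in sum. EPFL6 (LOC110021258), a secreted patterning peptide, had 8.52, 13.7 and 10.5 CPM in SD_20d and 0.948, 1.19 and 0.737 CPM in SD_40d. It fell by 3.51 ± 0.40 log2 units (adjusted p = 0.00065). SPCH (LOC110029739), the factor that starts the lineage, had 0.505, 2.04 and 1.35 CPM in SD_20d and 0, 0 and 0.147 CPM in SD_40d, or 51 counts against 2, a ratio of 24.3 with an interval of 6.38 to 206. It was called (adjusted p = 0.0337), but not in 5 of the 6 fits with 1 library left out. FAMA (LOC110030406), which acts at its end, had 1.23, 1.06 and 0.783 CPM in SD_20d and 1.24, 0.732 and 0.516 CPM in SD_40d (adjusted p = 0.617). Among meristem markers 6 of 11 rose and 1 fell. The boundary gene NAC98 (LOC110038246), matched to CUP-SHAPED COTYLEDON 2, had 0.144, 0.245 and 0.641 CPM in SD_20d and 3.06, 17.6 and 15.7 CPM in SD_40d and rose by 5.08 ± 0.75 log2 units (adjusted p = 0.000733); the cambium gene WOX4 (LOC110026126) had 2.45, 3.02 and 2.99 CPM in SD_20d and 0.51, 0.366 and 0.0737 CPM in SD_40d. It fell by 3.12 ± 0.66 log2 units (adjusted p = 0.00287).

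Falls outnumbered rises among pectin and cytokinin genes, and auxin and wall-loosening genes went both ways. Of 63 pectin enzymes, which set the stiffness of growing walls, 30 fell and 1 rose (median -0.69). PME68 (LOC110027927), a pectinesterase, had 157, 227 and 216 CPM in SD_20d and 72, 20.5 and 18.3 CPM in SD_40d. It fell by 2.43 ± 0.52 log2 units (adjusted p = 0.00306). The rise was PME2 (LOC110027208), with 2 counts in SD_20d and 56 in SD_40d, a ratio of 29.4 with an interval of 7.78 to 249. That call was lost under limma-voom and in 5 of the 6 fits with 1 library left out, all but that without SD_40d replicate 1; PME2 did not pass the filter in the fit to the 6 short-day libraries. The pectin list held 4 rises without SD_40d replicate 1 and none without any one SD_20d library or SD_40d replicate 3. Expansins and xyloglucan enzymes were mixed, with 14 of 45 down (31.1%) and 10 up (22.2%), beside 20.7% and 20.1% over all genes. EXP10 (LOC110018620), an expansin, had 59.7, 70.9 and 60.5 CPM in SD_20d and 14.1, 7.22 and 2.43 CPM in SD_40d and fell by 3.0 ± 0.62 log2 units (adjusted p = 0.00252), and XTH30 (LOC110022712) had 12.5, 6.28 and 4.2 CPM in SD_20d and 26, 96.5 and 106 CPM in SD_40d. It rose by 3.31 ± 0.56 log2 units (adjusted p = 0.00101). The falls in that list numbered 9 without SD_20d replicate 2 and 9 without SD_40d replicate 2, and the rises 6, 6, 5, 5 and 4 without SD_20d replicates 1, 2 and 3 and SD_40d replicates 2 and 3. Of 84 auxin genes 29 fell and 13 rose (median -0.27). ARFK (LOC110023973), an auxin response factor, had 13.1, 22.6 and 19.2 CPM in SD_20d and 1.24, 1.37 and 0.811 CPM in SD_40d and fell by 4.0 ± 0.65 log2 units (adjusted p = 0.000855), while ARFV (LOC110032916) had 44.8, 44.2 and 40.2 CPM in SD_20d and 80.9, 86.6 and 87.7 CPM in SD_40d. It rose by 0.98 ± 0.13 log2 units (adjusted p = 0.00072). The auxin rises numbered 8 without SD_20d replicate 2 and 7 without SD_20d replicate 3 or either of SD_40d replicates 2 and 3. Of 33 cytokinin genes 15 fell and none rose (median -0.44). ORR10 (LOC110035490), a response regulator that cytokinin induces in rice, had 46.5, 47.7 and 42.5 CPM in SD_20d and 26.2, 17 and 11.7 CPM in SD_40d. It fell by 1.32 ± 0.28 log2 units (adjusted p = 0.00297). The cytokinin falls numbered 8, 7, 6 and 9 without SD_20d replicate 2, SD_20d replicate 3, SD_40d replicate 2 and SD_40d replicate 3.

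Photosynthetic carbon metabolism rose. Of 26 genes of the Calvin cycle and photorespiration 16 rose and 1 fell (median 0.92), and without SD_40d replicate 1 the numbers were 16 and 1. RCA (LOC110026894, scaffold NW_018164444.1, 35488682 to 35492624), the activase that frees Rubisco of inhibitory sugars, had 3175, 1850.0 and 2179 CPM in SD_20d and 7314, 9377 and 9573 CPM in SD_40d. It rose by 1.87 ± 0.29 log2 units (adjusted p = 0.000799), and every day-40 library lay above every day-20 and every control library, the controls holding 3838, 3488 and 3406 CPM. GOX (LOC110039153), the glycolate oxidase of photorespiration, had 324, 233 and 247 CPM in SD_20d and 670.2, 968 and 984 CPM in SD_40d. It rose by 1.71 ± 0.22 log2 units (adjusted p = 0.00065). GCSP (LOC110031439), a subunit of the glycine decarboxylase that releases photorespiratory CO2, had 1422, 993 and 1083 CPM in SD_20d and 2551, 4196 and 3991 CPM in SD_40d. It rose by 1.62 ± 0.25 log2 units (adjusted p = 0.000799). TKTC (LOC110028778), the transketolase of the Calvin cycle, had 446, 285 and 318 CPM in SD_20d and 862, 908 and 881 CPM in SD_40d. It rose by 1.34 ± 0.22 log2 units (adjusted p = 0.000876). The single fall was GLO4 (LOC110028703), another glycolate oxidase type. Light-harvesting and electron transport genes had smaller medians. Of 24 subunits of the photosystems and electron carriers 11 rose and none fell (median 0.49), but 7 rose without SD_20d replicate 2. PSBS (LOC110028411), which triggers the shedding of excess light energy, had 559, 440.4 and 436 CPM in SD_20d and 1120.0, 1172 and 1351 CPM in SD_40d. It rose by 1.34 ± 0.20 log2 units (adjusted p = 0.000749). Of 13 chlorophyll a-b binding genes 4 rose (CB12, CB13, CB5 and CB24) and none fell, and 1 of the 4 was left in each fit without SD_20d replicate 2 or 3 or SD_40d replicate 2 or 3. CB12 (LOC110038615) had 1693, 1329 and 1352 CPM in SD_20d and 2364, 3066 and 2553 CPM in SD_40d and rose by 0.87 ± 0.22 log2 units (adjusted p = 0.00687); the control held 4843, 6626 and 5373 CPM, more than any short-day library. Only CAO (LOC110035673) and CHLP (LOC110032603) rose among 14 chlorophyll synthesis genes, where CAO, which makes chlorophyll b, had 275, 213 and 232 CPM in SD_20d and 403, 462 and 439 CPM in SD_40d. It rose by 0.86 ± 0.16 log2 units (adjusted p = 0.0015). Among chlorophyll breakdown and senescence genes 11 of 15 rose and 2 fell (median 0.84); 4 of the rises share the match PPH, pheophytinase, and could split reads. PAO (LOC110024671), which opens the chlorophyll ring, had 79.8, 57.1 and 62.2 CPM in SD_20d and 124, 179.6 and 225 CPM in SD_40d. It rose by 1.41 ± 0.21 log2 units (adjusted p = 0.000734). SGR (LOC110025696), the STAY-GREEN protein that removes magnesium from chlorophyll, had 10.5, 10.3 and 12.6 CPM in SD_20d and 14.6, 43.9 and 48.4 CPM in SD_40d and rose by 1.67 ± 0.38 log2 units (adjusted p = 0.00415), with replicate 1 close to day 20. The falls were SGRL (LOC110019890) and SAG20 (LOC110037988). Without SD_20d replicate 1, SD_40d replicate 2 or SD_40d replicate 3 there was 1 such fall, and without SD_40d replicate 1 the chlorophyll a-b binding genes had 1 fall and the chlorophyll synthesis genes 2.

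Starch genes rose in the day-40 leaves and the genes of CAM were split. Of 34 genes of starch synthesis and breakdown 22 rose and none fell (median 0.96). Without SD_40d replicate 1, 1 starch gene fell. BAM3 (LOC110020311, scaffold NW_018164536.1, 74371 to 77981), the plastid beta-amylase that releases maltose at night, had 111, 46.4 and 49.4 CPM in SD_20d and 454, 964 and 734 CPM in SD_40d. BAM3 rose by 3.38 ± 0.45 log2 units (adjusted p = 0.000696), and the control held 9.37, 17.6 and 18.6 CPM, below all short-day libraries. AMY3 (LOC110033066), an alpha-amylase, had 131, 113 and 110.5 CPM in SD_20d and 289, 356 and 368 CPM in SD_40d. It rose by 1.51 ± 0.19 log2 units (adjusted p = 0.00065). GLGS (LOC110030299), the small subunit of the enzyme that makes ADP-glucose for starch synthesis, had 214, 128 and 141 CPM in SD_20d and 399, 1303 and 1807 CPM in SD_40d. It rose by 2.86 ± 0.45 log2 units (adjusted p = 0.000823). Genes of both directions of starch turnover were thus among the rises, and replicate 1 lay nearer day 20 than replicates 2 and 3 did for BAM3 and GLGS. Of 22 genes for PEPC, its kinase, malate and carbonate enzymes 9 rose and 3 fell (median 0.19). CAPP2 (LOC110027447, scaffold NW_018164869.1, 5716320 to 5731872), a PEPC locus, had 395, 238 and 263 CPM in SD_20d and 424, 2421 and 3443 CPM in SD_40d. It rose by 2.81 ± 0.68 log2 units (adjusted p = 0.00582), and by 3.31 without SD_40d replicate 1, a library whose 424 CPM lay close to the day-20 values. The control libraries held 3560.0, 3882 and 4047 CPM of that locus, above all short-day libraries. The other PEPC locus, CAPP2 (LOC110022615), was not called. DESeq2 (adjusted p = 0.529), limma-voom (adjusted p = 0.388) and the 6 fits with 1 library left out did not call it either. PPDK1 (LOC110023679), which regenerates the acceptor of PEPC by day, had 1793, 865 and 1037 CPM in SD_20d and 3151, 8234 and 9740.0 CPM in SD_40d. It rose by 2.52 ± 0.42 log2 units (adjusted p = 0.000952). CAHC (LOC110024122), a carbonic anhydrase, had 45.3, 15.7 and 15.4 CPM in SD_20d and 126, 554 and 598 CPM in SD_40d. It rose by 4.06 ± 0.67 log2 units (adjusted p = 0.000913). The kinase that activates PEPC at night went in both directions at its 2 loci. PPCK1 (LOC110023763) had 33.1, 55.6 and 49.1 CPM in SD_20d and 14.4, 6.95 and 9.14 CPM in SD_40d and fell by 2.17 ± 0.31 log2 units (adjusted p = 0.000733), whereas PPCK1 (LOC110038259) had 12.5, 7.42 and 6.69 CPM in SD_20d and 114, 20.7 and 15.6 CPM in SD_40d and rose by 2.50 ± 0.70 log2 units (adjusted p = 0.0127). DESeq2 gave the second locus no adjusted p, and its call was lost under limma-voom and without SD_20d replicate 2, SD_20d replicate 3 or SD_40d replicate 1, where the change was 1.03. At the second PPCK1 locus replicate 1 was the highest library, in contrast to its place for CAPP2 (LOC110027447). The other falls in the list were MAOX (LOC110022961) and ATCA7 (LOC110033004). Of 42 sucrose, trehalose and raffinose genes 17 rose and 5 fell, the rises numbering 10 without SD_20d replicate 2 and 11 without SD_20d replicate 3 or SD_40d replicate 2, and the falls 3 without SD_40d replicate 3. INV1 (LOC110029333), a fructosidase match, had 9.81, 2.85 and 5.06 CPM in SD_20d and 91.2, 70.3 and 97.3 CPM in SD_40d and rose by 3.86 ± 0.73 log2 units (adjusted p = 0.00162); INV3 (LOC110025305), a cell wall invertase, had 21.2, 25.5 and 23.2 CPM in SD_20d and 1.82, 1.92 and 2.51 CPM in SD_40d. It fell by 3.48 ± 0.43 log2 units (adjusted p = 0.00065). Of 31 sugar transporters 9 fell (29.0%) and 4 rose (12.9%), beside 20.7% and 20.1% over all genes. The falls numbered 13 without SD_40d replicate 1 and 5 without SD_20d replicate 2 or SD_40d replicate 3. Among them SUT1 (LOC110038014) had 10.7, 15.3 and 13.8 CPM in SD_20d and 2.62, 1.92 and 0.59 CPM in SD_40d and fell by 2.95 ± 0.48 log2 units (adjusted p = 0.000894). It was not the only sucrose transporter locus to fall. SUT2 (LOC110020848) had 138, 126 and 134 CPM in SD_20d and 175, 222 and 234 CPM in SD_40d. It rose by 0.67 ± 0.11 log2 units (adjusted p = 0.000855).

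Clock, light and flowering-time genes rose more often than they fell. Of 8 dawn-phased clock genes 6 rose and none fell (median 0.88). The rises numbered 4 without SD_20d replicate 2 or 3 or SD_40d replicate 2, and 5 without SD_40d replicate 3. LHY (LOC110025280, scaffold NW_018164739.1, 4335363 to 4370462), a Myb factor that peaks at dawn, had 604, 341 and 416 CPM in SD_20d and 1152, 2360.0 and 2582 CPM in SD_40d. It rose by 2.16 ± 0.31 log2 units (adjusted p = 0.000733). The control libraries held 90.9, 48.7 and 68.4 CPM of that locus, below all short-day libraries. The second LHY locus (LOC110023014) had 155, 156 and 169.9 CPM in SD_20d and 152, 155 and 158 CPM in SD_40d and was not called (adjusted p = 0.763). RVE1 (LOC110020906), a related factor, had 26.9, 26.3 and 27.6 CPM in SD_20d and 58.2, 62.2 and 55.2 CPM in SD_40d. It rose by 1.12 ± 0.18 log2 units (adjusted p = 0.000853). Of 11 evening-phased clock genes 5 rose, but 2 did without SD_20d replicate 2 or 3 and 1 without SD_40d replicate 2 or 3, and on the mean of the list SD_40d replicate 1 lay at -0.16 on the scale used for histones. PRR95 (LOC110033028), a pseudo-response regulator that represses dawn genes, had 15, 8.16 and 11.8 CPM in SD_20d and 9.62, 97.2 and 130.1 CPM in SD_40d; it rose by 2.75 ± 0.65 log2 units (adjusted p = 0.00497), by 3.29 without SD_40d replicate 1, and was not called by limma-voom. GIGAN (LOC110019219), GIGANTEA, which links the clock to flowering, had 20, 12.8 and 15.9 CPM in SD_20d and 13.2, 42.8 and 37.9 CPM in SD_40d, against 638, 644 and 601 CPM in the control. Its rise of 0.94 ± 0.33 (adjusted p = 0.0371) was lost in the fit to the 6 short-day libraries, with the replicate block, under limma-voom and in 4 of 6 fits without 1 library. The ADO1 loci (LOC110032804 and LOC110032287) and a second PRR95 locus (LOC110019887) made up the other calls. As the hour of harvest is not given, any difference in sampling time cannot be told apart from a difference between days in the clock genes. Of 39 flowering-time regulators 13 rose and 4 fell (median 0.25). Cyclic dof factors repress CONSTANS and FT in Arabidopsis, and 4 of these loci rose: CDF2 (LOC110026496) had 174, 110.5 and 123 CPM in SD_20d and 320.5, 508 and 426 CPM in SD_40d and rose by 1.62 ± 0.22 log2 units (adjusted p = 0.00072), and CDF1 (LOC110018623) had 90.2, 51.7 and 53.7 CPM in SD_20d and 179, 243 and 234 CPM in SD_40d. It rose by 1.75 ± 0.26 log2 units (adjusted p = 0.000734). A GHD7-like locus (LOC110024148, scaffold NW_018164692.1, 520474 to 521435), named after a rice factor that delays heading in long days, had 2.09, 2.04 and 2.21 CPM in SD_20d and 13.3, 27.5 and 31.4 CPM in SD_40d. It rose by 3.50 ± 0.37 log2 units (adjusted p = 0.00065). The falls were VIL2 (LOC110037314) and 3 loci of the FRIGIDA family (FRIGI, FRL4B and FRL3). VIL2, matched to a protein like the vernalization protein VIN3, had 39.8, 55.4 and 46.6 CPM in SD_20d and 14.5, 7.22 and 4.94 CPM in SD_40d. Another VIL2 locus (LOC110023449) rose, a call that was lost without SD_20d replicate 2. FT (LOC110022369), the leaf signal for flowering, had 11, 8 and 14 counts in SD_20d and 10, 6 and 4 in SD_40d and was not called (adjusted p = 0.324). SOC1 (LOC110020085), a MADS-box integrator of flowering signals, had 71.9, 66.7 and 71.7 CPM in SD_20d and 72, 95.8 and 85 CPM in SD_40d as deposited, log2 fold change 0.27 ± 0.20, adjusted p = 0.298. In the 6 SD_20d and LD_40d libraries the deposited FPKM and the deposited total count did not return the deposited counts to within 0.01 reads for 6734 to 9154 genes other than SOC1, and did so for all of them once the SOC1 counts of the same-numbered libraries of both groups were exchanged. The FPKM of SOC1 itself did not return its deposited count with the total of its own library, before or after that exchange, but did when its partner's total was used instead. With that exchange the SD_20d libraries held 47.3, 29.4 and 35.9 CPM, below all SD_40d libraries, and the change was 1.16 ± 0.20 (adjusted p = 0.000988). Of 62 photoreceptor and light signalling genes 19 rose and 7 fell, but the rises numbered 10, 12, 11 and 11, and the falls 4, 3, 4 and 3, without SD_20d replicates 2 and 3 and SD_40d replicates 2 and 3. PIL13 (LOC110028745), a phytochrome-interacting factor, had 358, 159.6 and 201 CPM in SD_20d and 599, 1438 and 1314 CPM in SD_40d and rose by 2.22 ± 0.33 log2 units (adjusted p = 0.000734), and the control held 4.56, 2.96 and 3.93 CPM.

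Among heat shock, NAC, lignin and secondary wall genes, many rises were set by SD_40d replicates 2 and 3. Of 62 heat shock proteins and factors 24 rose and 6 fell (median 0.43); without SD_40d replicate 1, 33 rose and 6 fell. HFB2B (LOC110027071), a heat stress transcription factor, had 3.32, 2.94 and 4.63 CPM in SD_20d and 4.74, 229 and 130.3 CPM in SD_40d; it rose by 5.05 ± 0.91 log2 units (adjusted p = 0.00131), by 5.63 without SD_40d replicate 1, and was not called by limma-voom. HSP7C (LOC110026661), a heat shock cognate 70 kDa protein, had 22, 24.1 and 32.4 CPM in SD_20d and 28.7, 2214 and 1348 CPM in SD_40d and rose by 5.51 ± 1.04 log2 units (adjusted p = 0.00161), or by 6.10 without replicate 1. Replicate 1 lay with the day-20 libraries for both. HSFC1 (LOC110029688), another such factor, had 7.94, 6.44 and 10.2 CPM in SD_20d and 23.2, 77.5 and 76.3 CPM in SD_40d and rose by 2.84 ± 0.36 log2 units (adjusted p = 0.00065), and its 3 day-40 libraries all lay above day 20. In contrast HSFB4 (LOC110036572) had 21.9, 36.2 and 36.2 CPM in SD_20d and 0.875, 0 and 0 CPM in SD_40d. It fell by 6.62 ± 1.25 log2 units (adjusted p = 0.00161). Of 48 NAC factors, a family with roles in senescence and wall thickening, 24 rose and 4 fell (median 1.25). The NAC falls numbered 7 without SD_40d replicate 1 and 2 without SD_20d replicate 2, SD_40d replicate 2 or SD_40d replicate 3. NAC48 (LOC110035537) had 50.1, 23.2 and 27.8 CPM in SD_20d and 107, 503 and 426 CPM in SD_40d. It rose by 3.35 ± 0.50 log2 units (adjusted p = 0.000734). Of 63 phenylpropanoid and lignin genes 24 rose and 8 fell (median 0.22). LAC7 (LOC110020534), a laccase of the kind that couples lignin units, had 6.49, 5.3 and 5.48 CPM in SD_20d and 12.3, 35.3 and 40.9 CPM in SD_40d and rose by 2.35 ± 0.36 log2 units (adjusted p = 0.000734), while TCMO (LOC110019442), the cinnamate hydroxylase near the start of the pathway, had 175, 238 and 224 CPM in SD_20d and 73, 61.5 and 58 CPM in SD_40d. It fell by 1.73 ± 0.31 log2 units (adjusted p = 0.00136). IRX9 (LOC110023236), which makes the xylan of secondary walls, had 2.17, 2.45 and 3.21 CPM in SD_20d and 6.78, 52.4 and 76.2 CPM in SD_40d. It rose by 4.11 ± 0.65 log2 units (adjusted p = 0.000828). CESA7 (LOC110023735), a cellulose synthase of secondary walls, had 4.76, 4.57 and 8.76 CPM in SD_20d and 2.55, 129 and 156 CPM in SD_40d and rose by 3.98 ± 0.93 log2 units (adjusted p = 0.00483), or by 4.57 without SD_40d replicate 1; limma-voom did not call it. The vascular and xylem list as a whole had 4 rises (CESA7 at 2 loci, CESA4 and VUP1) and 1 fall (SEOB) among 13, with 2 rises without SD_40d replicate 3 and 3 falls without SD_40d replicate 1, and its 14 loci summed to 790 to 851 CPM in SD_20d and 772 to 867 in SD_40d. With the SD_20d mean at 0 and replicates 2 and 3 at 1, replicate 1 lay at -0.39 for heat shock, -0.01 for lignin and 0.29 for NAC factors, against 0.91 for mitosis. Of 33 cold and dehydration genes 7 rose (21.2%) and 6 fell (18.2%), near the 20.1% and 20.7% over all genes. DRE2A (LOC110030383), a dehydration response factor, had 3.82, 1.96 and 2.42 CPM in SD_20d and 2.41, 86.3 and 40.6 CPM in SD_40d and rose by 3.97 ± 0.89 log2 units (adjusted p = 0.00399), not called by limma-voom. LEA14 (LOC110029555) had 209, 276 and 228 CPM in SD_20d and 132, 121 and 78.5 CPM in SD_40d. It fell by 1.11 ± 0.19 log2 units (adjusted p = 0.000983).

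**Figure D4:**
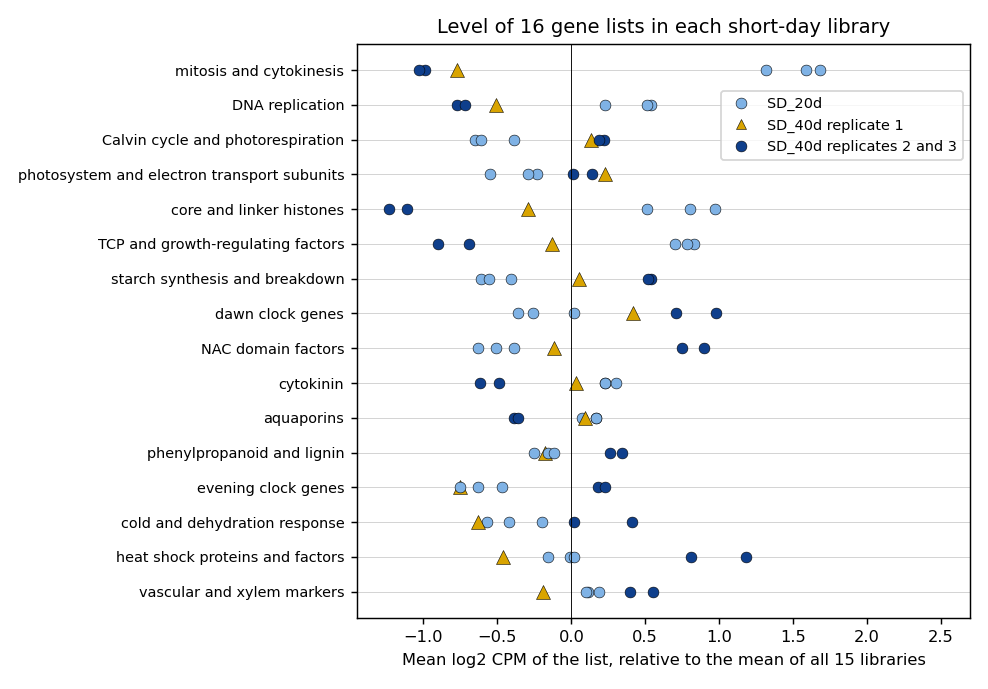
Mean log2 CPM of 16 gene lists in each SD_20d and SD_40d library, relative to the mean over all 15 libraries; the triangle is SD_40d replicate 1. For mitosis, replication and the Calvin cycle it lies with the other SD_40d libraries, and for lignin, evening clock, cold and heat shock genes with SD_20d or beyond.

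Nitrogen assimilation genes rose more often than they fell, with 13 of 26 up and 4 down. GLTB (LOC110034398), the ferredoxin-dependent glutamate synthase of chloroplasts, had 162, 121 and 133 CPM in SD_20d and 291, 441 and 412 CPM in SD_40d and rose by 1.46 ± 0.20 log2 units (adjusted p = 0.000733), and the other 3 loci of that match, which could share its reads, also rose. GLUT1 (LOC110020245), the NADH-dependent form, had 311, 381 and 348 CPM in SD_20d and 182, 141 and 143 CPM in SD_40d and fell by 1.16 ± 0.20 log2 units (adjusted p = 0.00112), and GLN11 (LOC110027426), a cytosolic glutamine synthetase, had 88.2, 112 and 113 CPM in SD_20d and 42.2, 41.5 and 40.3 CPM in SD_40d and fell by 1.34 ± 0.26 log2 units (adjusted p = 0.00186), while another GLN11 locus (LOC110021868) rose. AMT11 (LOC110038906), an ammonium transporter, had 41.2, 31.2 and 30 CPM in SD_20d and 75.8, 141 and 143 CPM in SD_40d. It rose by 1.81 ± 0.23 log2 units (adjusted p = 0.00065). Of 66 pathogenesis-related proteins, chitinases and glucanases 22 fell and 7 rose, the falls numbering 14 without SD_40d replicate 2 or 3. E133 (LOC110027924), a beta-1,3-glucanase, had 115, 181 and 158 CPM in SD_20d and 58.2, 25.6 and 25.5 CPM in SD_40d. It fell by 2.05 ± 0.34 log2 units (adjusted p = 0.000913). Of 26 glutathione S-transferases 10 fell and 4 rose, with 2 rises without SD_40d replicate 2 or 3; GSTFC (LOC110020435) had 158, 238 and 258 CPM in SD_20d and 23, 11.1 and 14.2 CPM in SD_40d. It fell by 3.75 ± 0.78 log2 units (adjusted p = 0.00272). Surface lipid genes held 15 rises and 7 falls among 41. KCS6 (LOC110027349), which elongates fatty acids for wax, had 548, 379.8 and 409 CPM in SD_20d and 1124, 1392 and 1057 CPM in SD_40d. It rose by 1.42 ± 0.20 log2 units (adjusted p = 0.000733). The 49 cuticle loci summed to 5070 to 5758 CPM in SD_20d and 8608, 7067 and 5374 in SD_40d replicates 1, 2 and 3, so that the groups overlapped in sum. Of 69 ethylene genes 19 rose and 7 fell, with 9 rises without SD_20d replicate 2 and 8 without SD_40d replicate 3, and 3 falls without SD_20d replicate 2 or 3 or SD_40d replicate 2 and 4 without SD_40d replicate 3. Of 42 WRKY factors 14 rose and 4 fell, the rises numbering 8 without SD_20d replicate 2 and 9 without SD_20d replicate 3, and the falls 2 in both of these fits and without SD_40d replicate 2 or 3. Among jasmonate and lipoxygenase genes, LOX15 (LOC110018528) was matched to a linoleate 9S-lipoxygenase. LOX15 had 281, 91 and 134 CPM in SD_20d and 556, 766 and 927 CPM in SD_40d. Its rise was 2.15 ± 0.34 log2 units (adjusted p = 0.000836). C74A2 (LOC110019894), an allene oxide synthase, had 26.7, 38.8 and 35.8 CPM in SD_20d and 0.365, 0 and 0.147 CPM in SD_40d. It fell by 7.46 ± 1.37 log2 units (adjusted p = 0.00142). Gibberellin genes gave 4 rises and 4 falls among 28, each 14.3% and below the 20.1% and 20.7% over all genes. The receptor GID1C (LOC110030604), with 40.8, 33.1 and 37.2 CPM in SD_20d and 70.7, 76.2 and 82 CPM in SD_40d, rose by 1.04 ± 0.17 log2 units (adjusted p = 0.000853). The gibberellin rises numbered 2 without SD_20d replicate 1 and 1 without SD_20d replicate 2 or 3, and the falls 8 without SD_40d replicate 1 and 2 without SD_40d replicate 2 or 3.

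Under 16 h of light the same step from day 20 to day 40 gave 861 calls of 16700 (5.16%), 362 up (2.17%) and 499 down (2.99%). That count rests on single libraries: it was 2 without LD_20d replicate 2, 16 without LD_20d replicate 3, 1 without LD_40d replicate 1, 325 without LD_40d replicate 2 and 2011 without LD_40d replicate 3. Of the long-day rises 306 were also short-day rises, 84.5% of the long-day and 9.13% of the short-day rises, and of the long-day falls 473 were short-day falls, 94.8% and 13.7%. The short-day and long-day comparisons share no library, though all libraries share the fit. Mitosis genes had a median of -0.93 in long days with 14 falls, beside -1.83 and 35 in short days. Starch genes had 0.49 with 4 rises, beside 0.96 and 22, and histones -0.35 with 1 fall, beside -1.51 and 31. TOP2 changed by -6.61 ± 1.44 log2 units in long days and CAPP2 (LOC110027447) by 0.88 ± 0.64, against -10 ± 1.69 and 2.81 ± 0.68 in short days. The smaller numbers of calls in long days do not show a smaller change, and the difference itself was tested as an interaction. The interaction of photoperiod and day passed the threshold for 0 genes in edgeR (1832 had an unadjusted p under 0.05, smallest adjusted p 0.385), for 0 under limma-voom and for 33 in DESeq2. Without SD_40d replicate 1 it passed for 1108 of 16921 genes (6.55%), 544 with a higher (3.21%) and 564 with a lower (3.33%) change in short days. These included 19 of 41 histones and 3 of 54 mitosis genes with the lower change, and 15 of 62 heat shock genes and 12 of 63 lignin genes with the higher. Among genes whose log2 CPM averaged at least 2, the smallest unadjusted p in the fit to all libraries belonged to the RNA helicase RH14 (LOC110028444), at 5.6e-05, and the mitotic kinase AUR3 (LOC110030091), at 8.5e-05. AUR3 had 10.8, 14.8 and 14.4 CPM in SD_20d and 3.57, 3.38 and 3.25 CPM in SD_40d, and changed by -1.96 ± 0.24 in short and -0.13 ± 0.23 in long days. The GHD7-like locus LOC110024148 changed by 3.50 ± 0.37 and 0.84 ± 0.33. One gene was called in opposite directions: AGT21 (LOC110021412), an alanine-glyoxylate aminotransferase, had 6.71, 4.16 and 4.42 CPM in SD_20d and 2.04, 2.74 and 2.51 CPM in SD_40d and fell by 1.07 ± 0.32 log2 units (adjusted p = 0.0171), and rose in long days by 1.32 ± 0.32 (adjusted p = 0.0415), with an adjusted interaction p of 0.385.

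**Figure D5:**
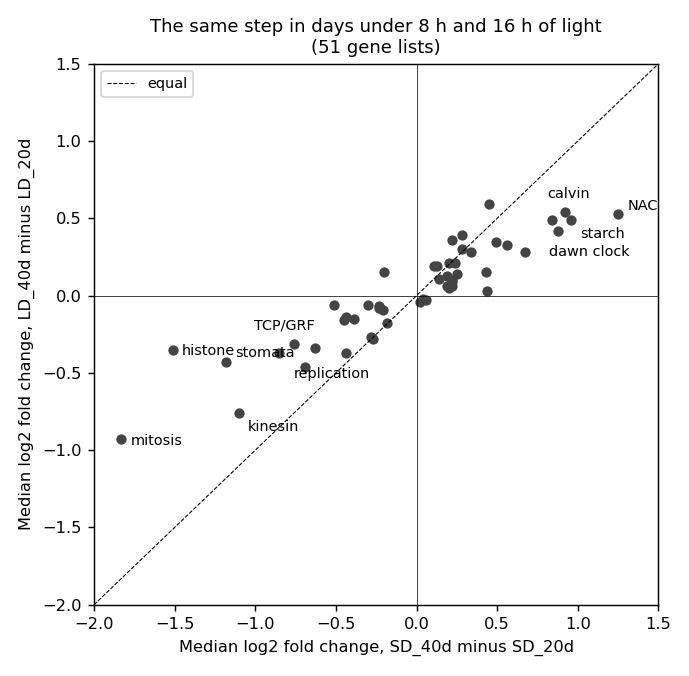
Median log2 fold change from day 20 to day 40 of 51 gene lists under 8 h (horizontal) and 16 h of light (vertical), each list 1 point, with the dashed line where both are equal. Mitosis lies at -1.83 and -0.93 and NAC factors at 1.25 and 0.53, both nearer to 0 in long days; no test of the lists was made.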

How the data were processed

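Leaf RNA was sequenced in 15 libraries, 3 in each of 5 groups. The authors deposited raw read counts per gene together with FPKM values, per the file headers; counts were the basis of every test, and FPKM served for levels per length and for a check of the counts (FPKM match within 0.01 reads). Per the submitters' processing notes, the tools named are HISAT2 2.0.5, cutadapt 1.15, DESeq 1.30.0 and HTSeq 0.9.1; the genome build and the use of strand are not given in the sources used here, so that overlapping and near-identical loci are uncertain.

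From the counts, genes with too few counts were removed with filterByExpr, which left 16700 of 21144, libraries were scaled by TMM, and edgeR 4.0.16 (R 4.3.3) fitted 1 mean per group with its quasi-likelihood test and Benjamini-Hochberg adjustment over all genes tested. DESeq2 1.42.0 and limma-voom (limma 3.58.1) were alternatives. On simulated counts for 16589 genes, 60 of 100 genes changed by a log2 of 1 and 92 of 100 changed by 2 were called, with 8 false calls. The changed genes were drawn from well-counted genes only. Each gene was simulated independently, and no library stood apart as SD_40d replicate 1 did. These rates therefore do not carry over to the real counts. Intervals on count ratios are 95% and cover counting error only, and bounds use a floor of 3 counts over a group.

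Gene lists came from words in the gene descriptions. The groups, members and 51 lists were chosen with earlier results of these data known. Genes were named from sets drawn by rule. The first set was the 10 steepest rises and falls among calls with an informative description. Their log2 CPM averaged at least 2 and their groups do not overlap. The next was up to 2 called members per list and direction with the smallest adjusted p. The others were clock, flowering, PEPC and PEPC kinase loci whose log2 CPM averaged at least 1, SOC1, and the 8 smallest interaction p-values. Not every gene of these sets is named, so the genes shown are a choice among them. Chosen after their values were seen were SY111, CCB22, PCNA1, H2B1, RS8, TCP3, ANT, SPCH, FAMA, PME68, EXP10, RCA, GCSP, TKTC, SGR, BAM3, GLGS, PPDK1, INV1, the FT locus, HSP7C, the GLTB locus with values, E133, GSTFC, AGT21 and RD19A, and the members named to account for a small count. A further flowering-time result is not reported here. The p-values measure the spread between pools of plants.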

Additional observations from a re-analysis of the deposited data

How the results depend on the processing

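For the step from day 20 to day 40 in short days, DESeq2 size factors gave 6903 calls, DESeq2 7266, limma-voom 6694, no filter on low counts 6653 and the 6 short-day libraries alone 5728, beside 6801. A log2 size of 1 or more left 2936 calls (1227 up, 1709 down), and leaving out 1 library gave 4617 to 8174. For long days, beside 861, DESeq2 called 2226, limma-voom 483 and a log2 size of 1 or more 493, and leaving out 1 library gave 1 to 2011. For the interaction, beside 0, DESeq2 called 33, and leaving out 1 library gave 0 to 1108, the other nonzero count being 8 without LD_20d replicate 2. The cause of these differences was not tested, except that the threshold on size can only remove calls. Same-numbered libraries of SD_20d and SD_40d had correlations of -0.192, -0.083 and -0.038 between their deviations from the group means, so the numbers were not taken to pair the samples; with the replicate block the counts were 6434, 301 and 0. In the 6 short-day libraries alone with the block, a fit added after seeing the data, 2546 genes were called. With SOC1 counts exchanged, its change was 1.16 instead of 0.27. List medians near 0 changed sign in places. Without SD_40d replicate 1 the median moved from 0.04 to -0.2 for expansins and xyloglucan enzymes. For autophagy and protease genes it moved from 0.02 to -0.16. Of 125 called genes named, 102 kept their call under every fit that gave them an adjusted p, and 12 lost it under limma-voom. No called change of a named gene reversed in these fits. The fit to the 6 short-day libraries with the block was not among them. Scaling by DESeq2 size factors kept 6682 of the 6801 calls and limma-voom 6421. Depth limits genes of few counts, such as SPCH and PME2.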

Other observations

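Per length, the most abundant leaf transcripts changed order between day 20 and day 40. In the deposited FPKM, a chlorophyll a-b binding locus, CB24 (LOC110038717), averaged 4653 ± 670 (SD, n = 3) in SD_20d and 6206 ± 988 in SD_40d, moving from rank 4 to rank 1 among all genes. RCA averaged 1468 ± 403 FPKM and then 4710 ± 478, from rank 27 to rank 4. The plastid aldolase ALFP (LOC110026899), a Calvin cycle enzyme, averaged 904 ± 259 and then 3124 ± 778 FPKM, from rank 53 to rank 7. The glycolytic dehydrogenase G3P (LOC110033536) averaged 1614 ± 142 and then 5650 ± 3288 FPKM, the latter with a wide spread between libraries. Other abundant transcripts lost rank. CB26 (LOC110031670), another chlorophyll a-b binding locus and the highest of all in SD_20d, averaged 6770 ± 327 and then 5066 ± 487 FPKM, at rank 3. DHYS (LOC110031045), matched to a deoxyhypusine synthase, averaged 4939 ± 904 and then 97.6 ± 98.4 FPKM, from rank 2 to rank 1136. The lectin LEC (LOC110037737) averaged 4766 ± 779 and then 1352 ± 1181 FPKM, from rank 3 to rank 35. These levels are descriptions, with no test of the ranks.

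Of 74 DnaJ co-chaperones, partners of the 70 kDa heat shock proteins, 27 rose and 5 fell, beside 20.1% and 20.7% over all genes, with 2 falls without SD_20d replicate 2 or SD_40d replicate 3 and 3 without SD_20d replicate 3. DNJH (LOC110023905) had 839, 524 and 574 CPM in SD_20d and 1604, 2044 and 2262 CPM in SD_40d and rose by 1.61 ± 0.22 log2 units (adjusted p = 0.00072). Of 112 MYB factors outside the clock 30 rose and 17 fell, with 19 rises without SD_20d replicate 2, and 11 falls without SD_40d replicate 2 and 10 without SD_40d replicate 3. MYB88 (LOC110025041), which limits divisions in the stomatal lineage of Arabidopsis, had 13.1, 26.8 and 18.3 CPM in SD_20d and 0.802, 2.56 and 1.7 CPM in SD_40d and fell by 3.54 ± 0.58 log2 units (adjusted p = 0.000909). Of 39 flavonoid genes 6 rose (15.4%) and 7 fell (17.9%), both below the shares over all genes, with 3 rises without SD_20d replicate 2. CHIL2 (LOC110027344), which aids chalcone synthesis, had 77, 92.8 and 77.8 CPM in SD_20d and 32.7, 12.6 and 7.3 CPM in SD_40d and fell by 2.23 ± 0.39 log2 units (adjusted p = 0.00116). ANR (LOC110022258), matched to an anthocyanidin reductase, had 1.66, 0.734 and 0.783 CPM in SD_20d and 5.4, 17.3 and 14.3 CPM in SD_40d and rose by 3.52 ± 0.59 log2 units (adjusted p = 0.000973). Among 102 autophagy and protease genes 27 rose and 18 fell, the falls numbering 11 without SD_20d replicate 2, 37 without SD_40d replicate 1 and 11 without SD_40d replicate 2. RD19A (LOC110036884), a vacuolar cysteine protease, had 64.6, 49.4 and 60.5 CPM in SD_20d and 96.8, 165 and 157 CPM in SD_40d and rose by 1.26 ± 0.18 log2 units (adjusted p = 0.000733). The aquaporin PIP12, a water channel of the plasma membrane, fell at 1 locus (LOC110020662, 687, 874 and 912 CPM in SD_20d and 496, 433 and 413 CPM in SD_40d) and rose at another (LOC110025131, 362, 249 and 274 CPM in SD_20d and 393, 707 and 889 CPM in SD_40d), with 2 rises and 3 falls among 19 aquaporins, and 8 falls without SD_40d replicate 1. In abscisic acid signalling, SAPK3 (LOC110020157), a kinase, had 11.4, 13 and 15 CPM in SD_20d and 3.43, 2.93 and 3.98 CPM in SD_40d and fell by 1.92 ± 0.27 log2 units (adjusted p = 0.000733), while the zeaxanthin epoxidase ZEP (LOC110039065), which makes a precursor of the hormone, had 55.4, 37 and 46.4 CPM in SD_20d and 87.4, 114 and 116 CPM in SD_40d and rose by 1.19 ± 0.17 log2 units (adjusted p = 0.000733).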
